A study of Mus musculus with 288 samples.

Results

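The endothelin and nitric oxide genes are 10 genes of the systems that constrict and relax blood vessels. They were chosen by name, as the rows Edn1, Edn3, Ece1, Ednra, Ednrb, Nos1, Nos2, Nos3, Gucy1a1 and Gucy1b1 of the deposited expression tables, and all 10 were found among 35904 genes. Bulk poly(A) RNA-seq was performed on heart, lung, cerebellum, kidney, liver and muscle of male wild-type C57BL/6J mice aged 8 weeks. The mice breathed room air (normoxia) or intermittent hypoxia (IH), in which oxygen cycled between 21% and 8% during the inactive phase, for 7 days, and all were then held in constant darkness at normal oxygen. Tissue was collected on day 2 of darkness every 3 hours at 8 time points, with 3 replicates per time point, so that each tissue had 24 normoxia and 24 IH libraries. All groups shared the strain, the genotype and the darkness. Expression values are TPM, a share of all transcripts that corrects for transcript length and library size, so that the levels of different genes can be set side by side.

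Endothelin 1, the product of Edn1, is released mainly by endothelial cells as an inactive precursor that endothelin converting enzyme 1 (Ece1) cleaves to the active peptide. Endothelin receptor type A (Ednra) on smooth muscle drives contraction, whereas the type B receptor (Ednrb) on endothelium drives release of nitric oxide and removes endothelin from the circulation. Nitric oxide is made from arginine by a neuronal (Nos1), an inducible (Nos2) and an endothelial (Nos3) synthase, and it relaxes smooth muscle by activating soluble guanylate cyclase, a heterodimer of an alpha subunit (Gucy1a1) and a beta subunit (Gucy1b1).

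In the GRCm38 build, with GENCODE coordinates, Edn1 lies on the plus strand at chr13:42301476-42307990, Ednra on the minus strand at chr8:77663031-77724464 and Ednrb on the minus strand at chr14:103814625-103844402. The cyclase subunits are neighbours on the minus strand of chromosome 3, Gucy1b1 at chr3:82032006-82074689 and Gucy1a1 at chr3:82092427-82145789, with 17737 bases between them. The 3 synthase genes are on chromosomes 5 (Nos1 and Nos3) and 11 (Nos2). The 250 bases before the RefSeq start (GRCm38.p6) are shown for Edn1 and for the receptor and cyclase pairs, because the balance within each pair is followed in the results. Each is written 5′ to 3′ on the strand of its gene, and capitals mark GCGTG, a core form of the element bound by hypoxia-inducible factors, on either strand.
Edn1, chr13:42301226-42301475: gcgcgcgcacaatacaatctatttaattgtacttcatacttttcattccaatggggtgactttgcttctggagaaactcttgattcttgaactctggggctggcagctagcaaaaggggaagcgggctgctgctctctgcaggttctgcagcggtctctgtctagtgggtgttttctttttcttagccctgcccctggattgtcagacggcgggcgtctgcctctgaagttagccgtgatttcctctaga
Ednra, chr8:77724453-77724702: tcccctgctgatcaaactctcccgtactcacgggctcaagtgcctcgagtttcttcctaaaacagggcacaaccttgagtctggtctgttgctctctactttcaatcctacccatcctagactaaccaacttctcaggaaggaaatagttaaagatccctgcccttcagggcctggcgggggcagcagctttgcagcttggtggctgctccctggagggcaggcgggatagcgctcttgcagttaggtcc
Ednrb, chr14:103843702-103843951: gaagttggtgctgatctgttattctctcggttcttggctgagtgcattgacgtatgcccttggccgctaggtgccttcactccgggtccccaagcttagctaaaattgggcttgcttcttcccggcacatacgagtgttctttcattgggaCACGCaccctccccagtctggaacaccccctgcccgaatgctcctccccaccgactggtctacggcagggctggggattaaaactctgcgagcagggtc
Gucy1a1, chr3:82145074-82145323: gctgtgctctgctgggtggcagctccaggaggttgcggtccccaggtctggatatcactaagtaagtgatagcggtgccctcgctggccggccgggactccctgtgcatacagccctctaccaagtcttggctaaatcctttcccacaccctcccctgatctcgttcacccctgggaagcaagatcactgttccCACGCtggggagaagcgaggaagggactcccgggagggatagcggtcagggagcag
Gucy1b1, chr3:82074712-82074961: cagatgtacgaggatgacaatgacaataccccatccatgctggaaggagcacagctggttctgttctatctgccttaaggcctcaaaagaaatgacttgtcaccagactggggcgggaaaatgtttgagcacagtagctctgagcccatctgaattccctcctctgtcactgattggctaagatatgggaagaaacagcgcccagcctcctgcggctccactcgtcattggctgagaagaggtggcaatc
GCGTG was found 1 time, on either strand, in the Ednrb window, beginning 99 bases before the start, and 1 time in the shown Gucy1a1 window, beginning 56 bases before it. It occurs in 28.2% of all 32851 windows of this length. The other motifs searched on both strands were ACGTG, which 16.6% of windows hold, the clock-factor E-box CACGTG (6.02%), which contains the former, the AP-1 site TGACTCA (4.46%) and the TATA box TATAAA (12.4%). None of the 5 motifs was found in the windows of Edn1, Ednra or Gucy1b1. RefSeq windows were found for 8 of the 10 genes, and 1 of the 4 Ece1 windows, at chr4:137913308-137913557, held CACGTG, beginning 90 bases before the start. That window also held GCGTG 2 times. GCGTG was found 1 time each in the overlapping Ece1 windows at chr4:137861987-137862236 and chr4:137862030-137862279.

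The libraries carried the defining markers of their tissue with few exceptions. The IH liver library of replicate 2 at 13:30 held only 1084 TPM of the 5 liver markers, against 18890 TPM or more in the other liver libraries, together with 5044 TPM of heart markers. It was the highest of its group for 8 of the 10 genes. Markers of other tissues were also higher in the IH livers as a group. The median sum of kidney markers was 3.55 TPM in normoxia and 82.5 TPM after IH, and that of heart markers was 8.72 and 24.2 TPM. The IH cerebellum library of replicate 3 at 1:30 held 294 TPM of cerebellum markers, against 1212 TPM or more in the others, and 5592 TPM of heart markers. Lung markers summed to over 100 TPM in 4 normoxia and 2 IH heart libraries, with a maximum of 2001 TPM, and the normoxia lung library of replicate 2 at 1:30 was the lowest of its group for 8 of the 10 genes. The number of genes above 0 TPM was 22694 ± 737 (SD, n = 24) in normoxia and 25455 ± 1529 after IH in the lung, and it moved the other way in the heart, from 25124 ± 1719 to 21447 ± 688. In whole tissue, fewer cells of a type and less RNA per cell cannot be told apart.

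The lung was the main site of endothelin gene expression in normoxia, and it ranked first for 7 of the 10 genes. Edn1 stood at 30.2 TPM ± 6.51 (SD, n = 24) in the lung, between 13.4 and 46.2 TPM with a median of 30.2 TPM. The next tissue, the cerebellum, reached 3.73 TPM ± 1.39, and the ranges of the lung and every other tissue did not overlap. Muscle (3.19 TPM ± 0.678) and heart (3.03 TPM ± 0.758) followed, and neither the cerebellum and muscle nor the muscle and heart differed beyond the spread between libraries (adjusted p = 0.142 and 0.422, 2-sided permutation test of log2(TPM + 0.5) within time points). Kidney (1.07 TPM ± 0.248) and liver (0.398 TPM ± 0.103) were lowest, and each step down to them passed the test.

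Edn3, which encodes the ligand endothelin 3, showed a similar first place for the lung at 10.7 TPM ± 1.97, followed by kidney at 2.96 TPM ± 0.411 and cerebellum at 2.14 TPM ± 0.940. All 5 steps of its order passed the test. Edn3 averaged 0.240 TPM in the heart and was listed at 0 in 9 normoxia and 6 IH liver libraries. Ece1 was the most abundant of the 10 genes in every tissue but the cerebellum, at 238 TPM ± 82.3 in the lung, where single libraries ran from 68.2 to 351 TPM, and at 19.1 TPM ± 8.07 in the cerebellum, where Ednrb and Gucy1b1 were higher. Its levels in liver (65.4 TPM ± 31.1) and muscle (51.9 TPM ± 13.9) did not differ beyond their spread (adjusted p = 0.188), nor did kidney (22.6 TPM ± 7.70) and cerebellum (adjusted p = 0.0661).

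**Figure D1:**
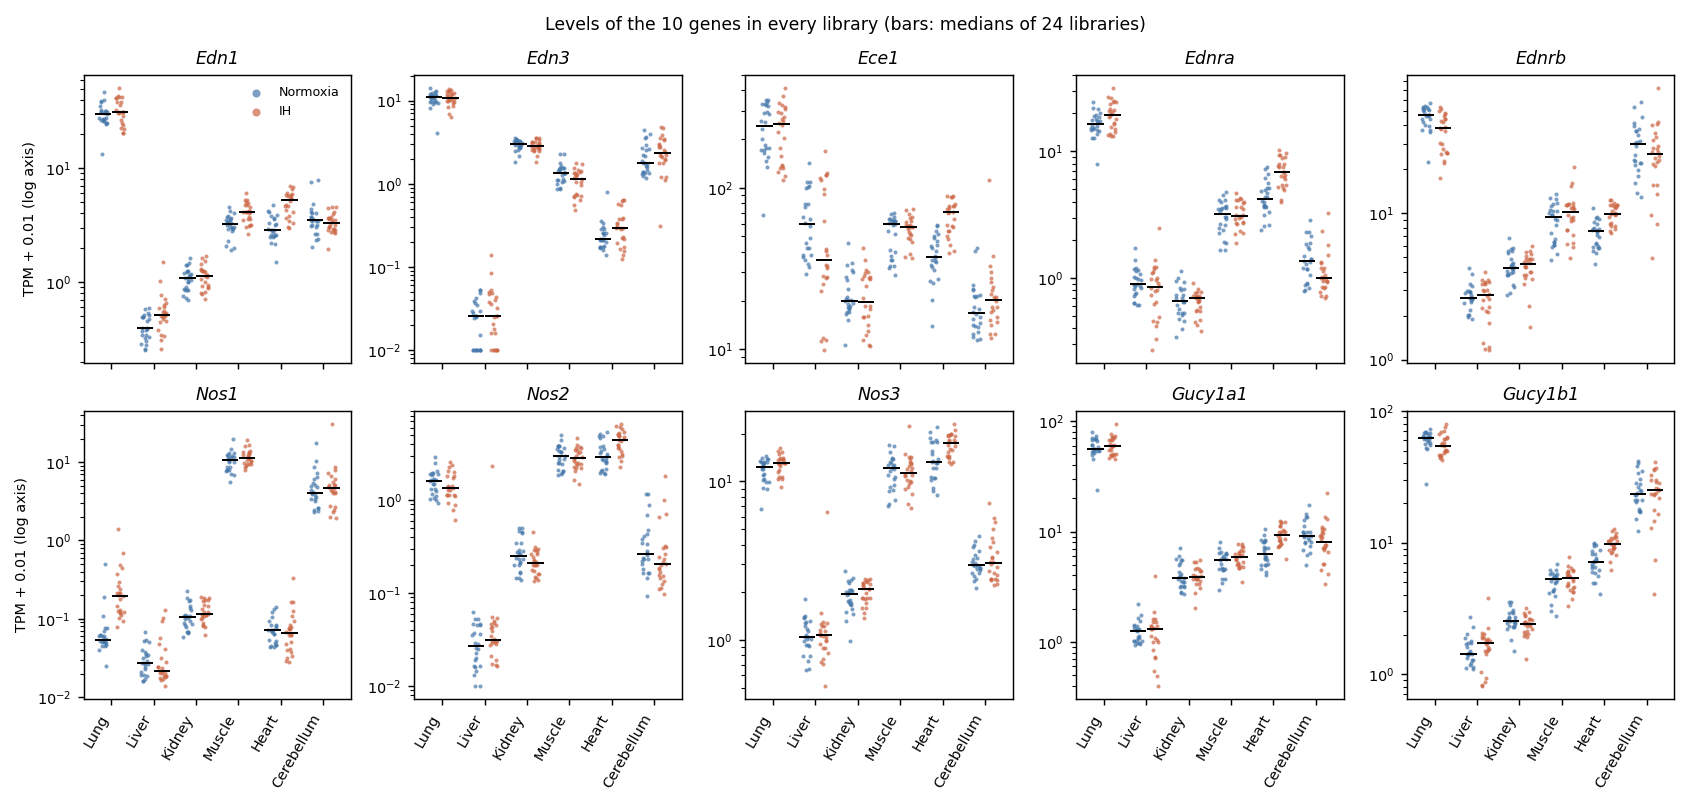
TPM + 0.01 of each gene on log axes in every normoxia (blue) and IH (orange) library of the 6 tissues, with bars at the medians of 24 libraries. Edn1 in the lung lies at 13.4 TPM or more in every library, above every library of the other tissues, whereas Nos1 stands out in muscle and cerebellum.

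The receptors were unevenly placed. Ednrb was highest in the lung at 45.9 TPM ± 7.70 (22.6 to 56.9 TPM, median 47.0) and second in the cerebellum at 30.0 TPM ± 11.9 (12.9 to 57.8 TPM, median 29.6), a log2 difference of 0.69 that passed the test (adjusted p = 1.72e-05). Muscle (8.97 TPM ± 2.61), heart (7.30 TPM ± 1.55), kidney (4.39 TPM ± 0.994) and liver (2.71 TPM ± 0.555) came next, each below its neighbour. Ednra reached 16.7 TPM ± 3.49 in the lung and 4.45 TPM ± 1.40 in the heart, but only 1.45 TPM ± 0.557 in the cerebellum and 0.667 TPM ± 0.199 in the kidney. Ednrb thus exceeded Ednra on average in all 6 tissues. As a mean log2 ratio of Ednra to Ednrb within libraries, the excess was smallest in the heart (-0.68) and largest in the cerebellum (-3.92).

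The 3 synthases had different tissues at the head of their order. Nos1 was highest in muscle at 10.5 TPM ± 3.05 (5.50 to 19.8 TPM, median 10.5), followed by cerebellum at 5.12 TPM ± 3.32, and it averaged at most 0.102 TPM in the other 4 tissues. Nos2 was highest in heart (3.18 TPM ± 1.08) and muscle (3.00 TPM ± 0.844), which did not differ beyond their spread (adjusted p = 0.625), and lower in the lung at 1.58 TPM ± 0.486. Nos3 was nearly level in heart (14 TPM ± 3.83), lung (11.8 TPM ± 1.97) and muscle (11.7 TPM ± 2.79). The heart and lung differed by 0.20 on the log2 scale with an adjusted p of 0.0495, and the lung and muscle did not pass the test (adjusted p = 0.713). Cerebellum (3.07 TPM ± 0.593), kidney (1.89 TPM ± 0.394) and liver (1.07 TPM ± 0.277) followed.

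Both cyclase subunits were highest in the lung, Gucy1a1 at 58.5 TPM ± 11.4 (23.9 to 80.0 TPM) and Gucy1b1 at 61.1 TPM ± 8.97 (27.9 to 72.6 TPM). In the cerebellum they parted, with Gucy1b1 at 25.1 TPM ± 8.03 and Gucy1a1 at 9.62 TPM ± 2.89. Elsewhere they ranged from 1.26 TPM (Gucy1a1, liver) to 7.19 TPM (Gucy1b1, heart). Of the 50 steps between neighbouring tissues that were tested over the 10 genes, 42 passed, and the first place of the lung for 7 genes held under every alternative setting. The places in the middle were less firm: with all libraries scaled to a common median of ratios, the direction turned for 9 of the steps, among them Nos3, which was then lower in lung than in muscle by 0.80 on the log2 scale.

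After IH, 7 of the 9 genes tested in the lung fell once libraries were scaled to each other, and Ednrb, the receptor that removes endothelin, had the largest change of the 9. Ednrb ran from 22.6 to 56.9 TPM with a median of 47.0 TPM in normoxia and from 17.4 to 53.5 TPM with a median of 38.1 TPM after IH. The ranges overlap, but the mean after IH was lower at all 8 time points. With libraries scaled by the median of ratios, the change was -0.67 ± 0.105 (log2 ± SE), or 0.630-fold, with an adjusted p of 3.09e-07 (limma, Benjamini-Hochberg over 15426 genes). It was the 1 gene of the 9 past 1.5-fold, where 13.5% of all lung genes tested passed both limits. Without replicate 1 (-0.52) or replicate 2 (-0.58) it still passed the test but not 1.5-fold, and without replicate 3 it was at -0.92.

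The 7 genes that passed an adjusted p of 0.05 were all lower after IH, with a median over the 9 of -0.27 on the log2 scale against -0.08 over all genes tested. Over all lung genes 70.4% passed, and 41.5% passed as lower, so a lower call was common. Gucy1b1 fell by 0.42 ± 0.0694 on the log2 scale and Gucy1a1 by 0.24 ± 0.0741. Ece1 fell by 0.34 ± 0.157 with an adjusted p of 0.0495, Nos2 by 0.33 ± 0.0956, Edn3 by 0.27 ± 0.0784 and Nos3 by 0.16 ± 0.0534. Without the normoxia library that was lowest for 8 genes, Edn1 passed as well (-0.24, adjusted p = 0.0249). With all libraries, Edn1 (-0.20 ± 0.0998, adjusted p = 0.0661) and Ednra (-0.07 ± 0.0857, adjusted p = 0.456) did not pass. Nos1 was under the mean of 1 TPM needed for the test, and its libraries overlapped, from 0.0148 to 0.489 TPM in normoxia and from 0.0683 to 1.41 TPM after IH, with a higher mean after IH at all 8 time points.

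The lung calls rested on the scaling for all of these genes but Ednrb. With TPM as deposited the median over all lung genes was higher after IH by 0.21, and 55.0% of them passed as higher and 10.7% as lower. Only 2 of the 9 genes passed: Ednrb, still lower at -0.37 (adjusted p = 0.00203), and Ednra, higher at 0.22 (adjusted p = 0.0370). Edn1 (0.10), Edn3 (0.02), Nos3 (0.13) and Gucy1a1 (0.07) then turned to positive values that did not pass. The mean TPM as deposited accordingly moved little, from 58.5 to 60.9 TPM for Gucy1a1 and from 238 to 233 TPM for Ece1.

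**Figure D2:**
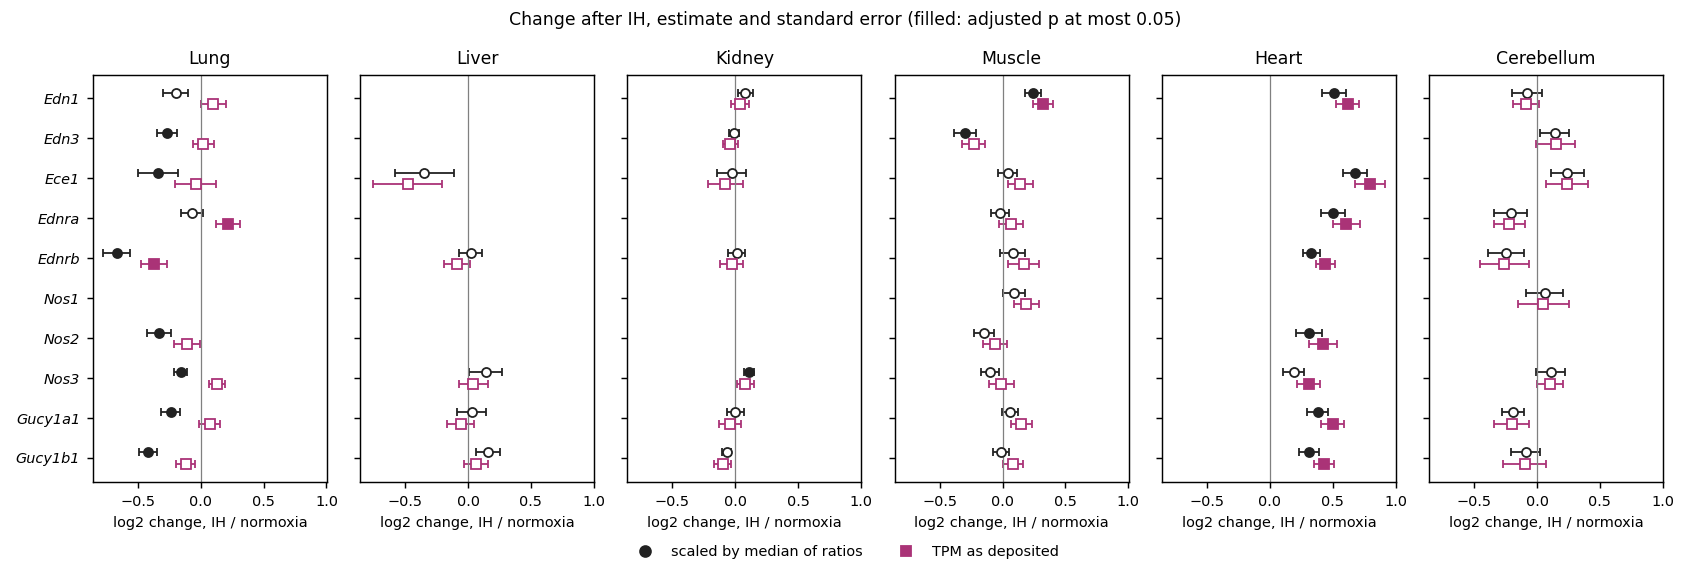
Log2 change from normoxia to IH with its standard error for each gene and tissue, for libraries scaled by the median of ratios (black circles) and TPM as deposited (magenta squares), filled where the adjusted p was at most 0.05. In the heart the tested genes lie to the right of 0 under both scalings, and in the lung Ednrb lies to the left of 0 under both (-0.67 and -0.37).

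Markers of the cells that carry these genes were lower as well with scaled libraries. In the lung, 9 of the 10 endothelial markers passed as lower and 5 of them by at least 1.5-fold, with a median of -0.60, and their summed level ranged from 1341 to 2655 TPM in normoxia and from 1158 to 2227 TPM after IH. Among them Pecam1 fell by 0.53 and Cdh5 by 0.77. Of the 10 markers of smooth muscle cells and pericytes, 7 passed as lower with a median of -0.41, and all 5 markers of lung epithelium passed as lower with a median of -0.79. With TPM as deposited 7 of the endothelial markers (median -0.30) and 4 of the epithelial markers (median -0.48) still passed as lower, but of the smooth muscle and pericyte markers 1 was lower and 1 higher (median -0.11). No marker of these lists had a median of 0 TPM. The part of these shifts, and that of the larger number of genes detected after IH, in the lower values of the 10 genes was not tested beyond the ratios given further on. With a term for how many genes each library detected, Ednrb stood at 0.07 and Ece1 at 0.78. The number detected was higher on average after IH but overlapped, from 21746 to 25400 in normoxia and from 23622 to 28284 after IH. Its part and that of the treatment were not separated.

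In the heart 7 of 8 tested genes were higher after IH. Ece1 ranged from 14 to 58.8 TPM with a median of 37.5 TPM in normoxia and from 39.7 to 88.7 TPM with a median of 70.5 TPM after IH, and 15 of the 24 IH libraries lay above the highest normoxia library. Its change was 0.68 ± 0.0960, or 1.60-fold, with an adjusted p of 2.66e-07, and it was the 1 gene of the 8 tested that passed 1.5-fold, against 2.95% of all heart genes. The 7 that passed an adjusted p of 0.05 were all higher, where 45.2% of all heart genes passed and 28.0% passed as higher. Without replicate 1 Ece1 was at 0.52 and no longer past 1.5-fold.

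The ligand Edn1 rose as well. Edn1 ranged from 1.49 to 4.78 TPM with a median of 2.86 TPM in normoxia and from 2.95 to 6.99 TPM with a median of 5.25 TPM after IH, and 13 IH libraries lay above every normoxia library. Its change was 0.51 ± 0.0964 (adjusted p = 3.67e-05). Ednra went from a median of 4.18 TPM (2.40 to 7.50) to 6.83 TPM (3.94 to 10.3), a change of 0.50 ± 0.0943. Ednrb rose by 0.33 ± 0.0678, Gucy1a1 by 0.38 ± 0.0832, Gucy1b1 by 0.31 ± 0.0803 and Nos2 by 0.31 ± 0.105, whereas Nos3 at 0.19 ± 0.0831 had an adjusted p of 0.0517. For all 8 of these genes the mean was higher after IH at 8 of 8 time points.

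The heart result kept its direction with TPM as deposited, where all 8 genes passed and Ece1 (0.80), Edn1 and Ednra passed 1.5-fold. Over all heart genes 37.5% then passed as higher, and 488 of 12779 passed 1.5-fold in either direction. Without the 6 heart libraries with over 100 TPM of lung markers, 6 of the 8 passed, where 6106 of all 12558 genes did. Ece1 was then at 0.60 and Edn1 at 0.44, and Nos2 had an adjusted p of 0.0641. With a term for the genes detected none of the 8 passed, and Ece1 stood at 0.06, where 257 of all 12779 heart genes passed. The number detected did not overlap, from 22988 to 28331 in normoxia and from 20316 to 22793 after IH. Its part and that of the treatment cannot be told apart in the heart. Endothelial markers moved with the genes, 6 of 10 higher with a median of 0.34 and a summed level of 216 to 595 TPM in normoxia and 360.1 to 630.4 TPM after IH. Of the markers of smooth muscle cells and pericytes 7 of 10 were higher (median 0.41), and of the fibroblast markers 4 of 5 (median 0.45).

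Far fewer of the genes passed in the other 4 tissues. In muscle, Edn1 rose and Edn3 fell. Edn1 ranged from 1.88 to 4.56 TPM with a median of 3.23 TPM in normoxia and from 2.64 to 6.02 TPM with a median of 4.12 TPM after IH, a change of 0.24 ± 0.0654 (adjusted p = 0.0121) with a higher mean at 8 of 8 time points. Edn3 went from a median of 1.34 TPM to 1.14 TPM, with 8 IH libraries below every normoxia library, a change of -0.30 ± 0.0854 (adjusted p = 0.0167). These 2 of 10 genes compare with 10.4% of all muscle genes, and none reached 1.5-fold, as did 0.374% of all genes. Both calls were lost without replicate 1, that of Edn3 without replicate 2 (adjusted p = 0.174) and with TPM as deposited (0.0736), and that of Edn1 without replicate 3 (0.0679).

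In the kidney, Nos3 alone passed among 7 genes, at 0.11 ± 0.0401 (adjusted p = 0.0407), with medians of 1.95 TPM in normoxia and 2.09 TPM after IH. Over all kidney genes 19.8% passed and 0.783% passed 1.5-fold, and the call was lost with TPM as deposited (adjusted p = 0.509) and without replicate 2 (0.268) or 3 (0.157). None of 5 genes passed in the liver, where 24.2% of all genes passed and 3.65% passed 1.5-fold, and none of 9 in the cerebellum, where 15% and 2.64% did. By limma, the unadjusted p was under 0.05 for 0 of these genes in the liver and 1 in the cerebellum, Gucy1a1 at -0.19 ± 0.0880 (adjusted p = 0.130). The cerebellum libraries ranged widely, Ednrb from 12.9 to 57.8 TPM in normoxia and from 4.92 to 72.4 TPM after IH. Without the IH cerebellum library that held heart markers, Ednra passed at -0.30 (adjusted p = 0.0243), and without the liver library that held heart markers Nos3 went from 0.14 to 0.01.

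Ece1 showed how strongly the replicate numbers could differ. Within replicate 1 alone its lung value was -1.20 on the log2 scale, within replicate 2 it was -0.45, and within replicate 3 it was 0.60. In the heart the same 3 values were 1.02, 0.41 and 0.64. Ednrb was lower in the lung within each number, at -0.98, -0.88 and -0.18, and so were Gucy1b1 (-0.59, -0.53 and -0.17), Nos2, Nos3, Edn1 and Edn3. Gucy1a1 and Ednra were above 0 within replicate 3. Without replicate 1, 2 of the 9 lung genes passed, Ednrb and Gucy1b1, and Ece1 was at 0.08.

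**Figure D3:**
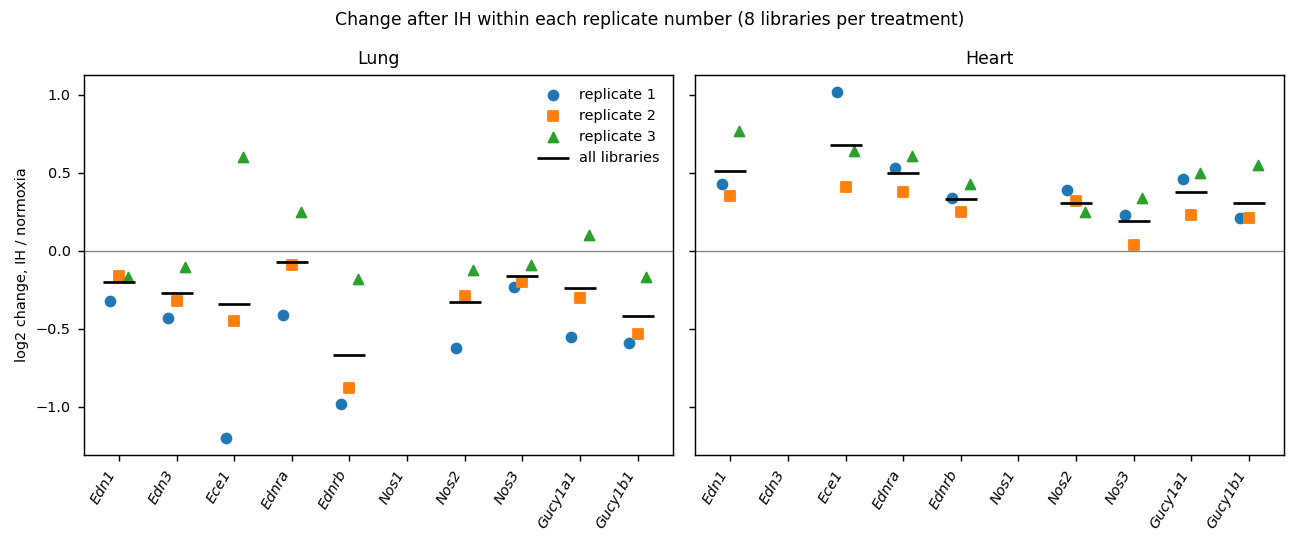
Log2 change from normoxia to IH within each replicate number (8 libraries per treatment) for the lung and heart, with horizontal bars at the value from all libraries. Ece1 in the lung spreads from -1.20 to 0.60, whereas every heart value lies above 0.

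The response of the lung was set against that of each other tissue by a treatment-by-tissue interaction, which compares the 2 changes directly. Against the heart all 8 genes differed, from -0.36 ± 0.0993 for Nos3 to -1.02 ± 0.186 for Ece1, with Ednrb at -0.99 ± 0.127 (adjusted p = 8.49e-11), where 65.2% of all genes differed. With TPM as deposited 7 of these 8 still passed, all but Nos3, and without replicate 1 Ece1 was at -0.43 and did not pass (adjusted p = 0.0738). Against the kidney 6 of 7 differed, against the muscle 4 of 9, against the cerebellum 4 of 8 and against the liver 2 of 5, where the shares of all genes were 63.2%, 56.8%, 49.8% and 52.6%. With all libraries, Ednrb and Gucy1b1 differed in all 5 comparisons. Every difference that passed in this fit, with scaled libraries and no further term, was in the direction of a lower lung value. The 4 cerebellum calls were lost without replicate 1 (adjusted p from 0.190 to 0.734) and without replicate 2 (from 0.126 to 0.348). The calls outside the heart with TPM as deposited were Ednrb against kidney (-0.34) and muscle (-0.54), and Ednra against cerebellum in the other direction (0.44, adjusted p = 0.0129), while none passed against the liver and Gucy1b1 differed only against the heart. With a term for the genes detected, Ece1 passed as higher in the lung against liver (1.27), kidney (0.53) and heart (0.76). Gucy1a1 then passed as higher against cerebellum (0.46). Nos3 against kidney (-0.23) and Ednrb against muscle (-0.31) passed as lower, and no other difference passed. The 5 comparisons share the lung libraries.

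Ratios of genes within a library do not depend on its scaling, and they showed a shift between the receptors in the lung. The log2 ratio of Ednra to Ednrb averaged -1.44 ± 0.21 (SD, n = 24) in normoxia and -0.85 ± 0.30 after IH, a rise of 0.59 (adjusted p = 1e-04 over 30 comparisons, 2-sided permutation test within time points, at the smallest p of 1e-05 that the resamples can give). In 19 of the 24 IH libraries the ratio lay above every normoxia library. Leaving out each replicate number gave rises between 0.49 and 0.68. In the other 5 tissues the ratio differed by 0.17 (heart, adjusted p = 0.118) or less, and none passed.

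The cyclase subunits shifted less. Gucy1a1 over Gucy1b1 rose in the lung from -0.08 ± 0.12 to 0.11 ± 0.11, a change of 0.18 (adjusted p = 1e-04), with 9 IH libraries above every normoxia library. Nos3 over the mean of the 10 endothelial markers rose in the lung by 0.41 (adjusted p = 1e-04), as the markers were lower by more than Nos3 was, and fell by 0.11 in the heart (adjusted p = 0.0148), which was lost without replicate 2 (0.175) or 3 (0.188). Gucy1b1 over the 10 markers of smooth muscle cells and pericytes did not pass in the lung (-0.11, adjusted p = 0.212) or the heart (-0.10, adjusted p = 0.157) and fell by 0.23 in the kidney (adjusted p = 0.000150). Edn1 over Ece1 passed in no tissue with all libraries, with an adjusted p between 0.118 and 0.596, but it depended on the replicates. Without replicate 3 it passed as a rise in lung (0.59), liver (1.08) and muscle (0.34), without replicate 1 the lung value was -0.24, and with a replicate block the liver value of 0.69 passed (adjusted p = 0.0138). In sum 5 of the 30 comparisons passed, 3 of them in the lung.

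**Figure D4:**
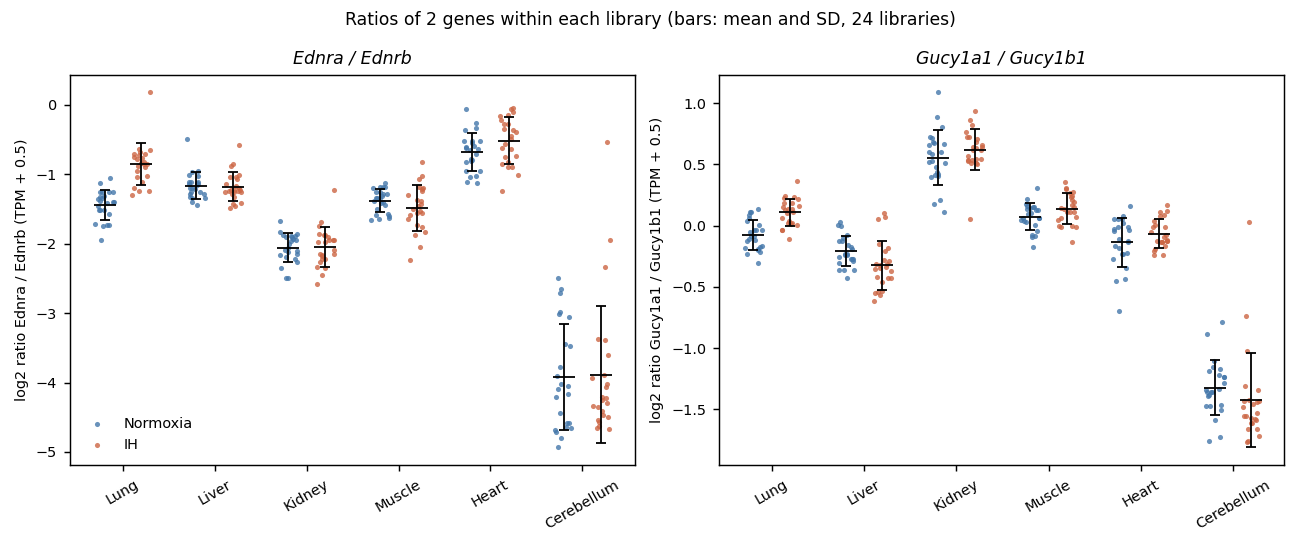
Log2 ratio of Ednra to Ednrb (left) and of Gucy1a1 to Gucy1b1 (right) in each normoxia (blue) and IH (orange) library, with the mean and SD of 24 libraries. In the lung the mean receptor ratio moves from -1.44 to -0.85, and the cerebellum has the lowest mean of both ratios.

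None of the 10 genes passed the test of a 24-hour rhythm in any tissue or treatment when the larger p of the JTK rank test and the Lomb-Scargle test was used. This rule was strict: the smallest Lomb-Scargle p that 24 libraries can give is 1.01e-05, 2.82% of genes passed in the normoxia liver, and 0% passed in the other 11 groups. Arntl, a core clock gene, passed in the normoxia liver alone, although its cosine fit peaked between 21.8 and 0.364 hours of circadian time in both treatments of 5 tissues, all but the cerebellum. The JTK test alone called Edn1 rhythmic in the lung in normoxia (adjusted p = 0.0441) and after IH (adjusted p = 0.00106), where 1.88% and 3.53% of genes passed.

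The Edn1 libraries of the lung were highest at 16:30 on average in both treatments. In normoxia the 3 libraries at 1:30 held 24.8, 13.4 and 24.6 TPM and those at 16:30 held 38.0, 27.3 and 46.2 TPM. The library at 13.4 TPM, of replicate 2, was named above as the lowest of its group for 8 genes. No rhythm test or fit was repeated without this library alone. After IH the lowest mean was at 7:30, with 20.2, 22.2 and 25 TPM, and the highest at 16:30, with 43.1, 41.9 and 50.9 TPM, so that the 2 time points did not overlap. The fitted amplitude was 5.89 ± 1.38 TPM (SE) with a peak at 14.1 ± 0.894 hours in normoxia, and 9.87 ± 1.38 TPM with a peak at 16.4 ± 0.534 hours after IH. The amplitude difference of 3.97 TPM had an unadjusted p of 0.0478 in the fit to 48 libraries by the delta method, and an adjusted p of 0.336 among the genes rhythmic by the Fisher method, and the peak difference of 2.25 hours had an adjusted p of 0.510, both from fits across all genes.

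In the heart Edn1 after IH was lowest at 7:30 (3.00, 2.95 and 3.26 TPM) and highest at 13:30 (6.75, 5.49 and 6.99 TPM). The cosine fit alone called it rhythmic after IH in the heart (adjusted p = 0.0219, 1.21% of genes) and the lung (adjusted p = 0.000228, 4.46% of genes), Nos2 after IH in the lung (adjusted p = 0.0388) and Edn3 in the normoxia kidney (adjusted p = 0.0394, 8.49% of genes). Combining both p-values by the Fisher method, which treats them as independent although they read the same libraries, called 8 of the groups of gene, tissue and treatment. These were Edn1 in the lung in both treatments (7.92% of genes in normoxia and 9.98% after IH), Nos2 in the lung after IH, Edn3 in the normoxia kidney (14.3%), Nos2 and Gucy1b1 in muscle after IH (6.35%), Edn1 in the heart after IH (3.44%) and Ednra in the normoxia cerebellum (3.13%). Changes of the mean level of the fit (MESOR), amplitude and peak time were tested only for Edn1 and Nos2 in the lung, where the alternative rules called a rhythm, and none passed (adjusted p from 0.143 to 0.986).

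**Figure D5:**
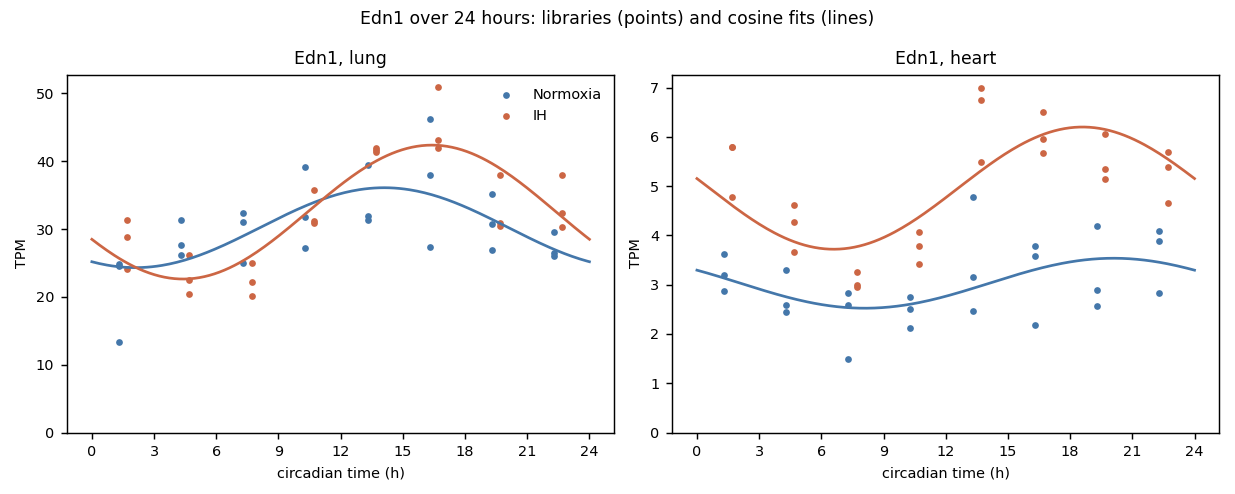
TPM of Edn1 in each normoxia (blue) and IH (orange) library of the lung and heart against circadian time in hours, with cosine fits of 24 hours as lines. In the lung the IH libraries at 16:30 lie between 41.9 and 50.9 TPM, above those at 7:30, which lie between 20.2 and 25 TPM.

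The other genes of the pathways stood near the share of all genes in most tissues, and their direction in the lung turned with the scaling. A list of 61 genes for the supply of arginine and tetrahydrobiopterin, synthase partners, cyclic GMP targets, contraction and other vasoactive peptides gave 54 tested genes in the lung, of which 22 passed as lower and 9 as higher (median -0.09), where 41.5% and 28.9% of all lung genes did. As deposited, 29 passed as higher and 7 as lower, where the shares of all lung genes were 55.0% and 10.7%. With scaled libraries all 6 genes of tetrahydrobiopterin synthesis, which supplies the synthase cofactor, were below 0 and 5 passed, against 2 lower and 1 higher as deposited, led by Spr (sepiapterin reductase) at -0.67 ± 0.0921, from 81.5 to 65.1 TPM. Of the 8 synthase partners 7 passed as lower, against 2 lower and 2 higher as deposited, led by Hsp90aa1, a chaperone that binds the endothelial synthase, at -0.75 ± 0.181. Of the 12 genes of contraction 5 passed, all higher, and 10 passed as higher as deposited, among them Cacna1c, a calcium channel subunit, at 0.74 ± 0.0795, from 6.56 to 14.5 TPM.

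In the heart 25 of 49 tested pathway genes passed as higher and 4 as lower (median 0.20), where 28.0% of all heart genes passed as higher. As deposited, 32 passed as higher and 2 as lower, against 37.5% of all heart genes as higher. Nppb, which encodes the natriuretic peptide BNP, rose by 0.62 ± 0.222 from 174 TPM ± 74.1 to 311 TPM ± 186, and Npr3, the clearance receptor of these peptides, rose by 0.61 ± 0.114 from 17 to 28.4 TPM. Of the cyclic GMP targets and phosphodiesterases 6 of 8 passed as higher. Of 10 contraction genes tested in the heart, 5 passed as higher and 2 as lower. Of 5 genes of tetrahydrobiopterin synthesis, 0 passed as higher and 2 as lower. In the liver 7 of 42 passed as higher and 4 as lower, near the 24.2% of all liver genes, and the split was 4 and 7 as deposited. The named liver gene, Nppa at 1.40 ± 0.385, went from 1.94 TPM ± 1.64 to 37.2 TPM ± 164, and it is one of the heart markers that summed to 5044 TPM in the liver library named above. The median sum of these markers over the liver libraries was 8.72 TPM in normoxia and 24.2 TPM after IH. In kidney (6 higher and 4 lower of 42), cerebellum (4 and 3 of 53) and muscle (3 and 3 of 49) the counts were also near the shares of all genes (19.8%, 15% and 10.4%), and none passed 1.5-fold.

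The genes most like each member over all libraries of the series, by Pearson correlation of log2(TPM + 0.5) among 18126 genes, were listed as a description. The 3 closest had r between 0.93 and 0.98, with Tmem100, Ramp2 and Samd5 for Edn1, Mfap4 for Ednra and Mall for Nos3. After the mean of each tissue and treatment was taken off, Gucy1b1 was the closest of all genes to Gucy1a1 (r = 0.85). Nos3 was then closest to Hspa12b (0.82), Tie1 (0.81) and Adcy4 (0.81), Ednra to Nid1 (0.83), Pdgfra (0.80) and Cdh5 (0.80), and Ece1 to Ctnnd1 (0.92), Dag1 and Arfgef2. Edn1 had no close partner, with Pi16 and Gfpt2 at 0.58. These values describe libraries that share tissues, composition and scaling, and no test was made of them.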

How the data were processed

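Poly(A) RNA-seq was performed on 24 libraries per tissue and treatment. The authors aligned reads with kallisto to Ensembl mouse release 102, and the deposited values are TPM summed to genes. Estimated counts were not used here and the depth of a library is unknown. TPM summed to between 989211 and 999188 per library, and no libraries were identical. For each tissue, genes averaging 1 TPM or more were scaled by the median of ratios, taken as log2(TPM + 0.5), so that changes of low genes are understated, and compared with limma 3.58.1 in R 4.3.3, with an intensity trend and Benjamini-Hochberg adjustment over all genes of the tissue. A gene passed at an adjusted p of 0.05, and a fold limit of 1.5 was applied where stated. Differences between tissues used a treatment-by-tissue term. Levels and ratios were compared by 2-sided permutation tests with 100000 resamples within time points, in scipy 1.17.1. Rhythms of 24 hours were tested with JTK and Lomb-Scargle statistics written anew, keeping the larger p, and cosine fits. The single-tissue fit, the permutation test, the rhythm tests and the MESOR difference were tried on simulated data. The treatment-by-tissue term and the differences in amplitude and peak time were not.

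The labels do not say which libraries came from the same mouse or which muscle was taken, so p-values measure the spread between these libraries. The deviations of same-numbered libraries correlated above 0.1 for all 3 numbers in muscle (0.16, 0.38 and 0.65) and for 2 of 3 in the liver (0.67, -0.06 and 0.49). Within time points the median correlation was 0.10 in muscle and 0.22 in the liver. The values given are from fits with treatment alone in every tissue, and in muscle the paired fit changed no call. The members and gene lists were chosen with earlier results of these data known. All 10 members are reported, with up to 3 pathway genes per tissue that passed both limits with the largest change and a mean of at least 5 TPM, the 3 most correlated genes per member, and Arntl. Marker genes and single libraries named beyond these were chosen after their values were seen. Leaving out the heart libraries with lung markers and the lung library of replicate 2 at 1:30 was also chosen after seeing the data.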

Additional observations from a re-analysis of the deposited data

Results flagged for a closer look

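The change after IH differed between the lung and another tissue, by the treatment-by-tissue term of limma, for 24 of the 37 combinations of gene and tissue tested. Such differences were common, with the share of all genes tested between 49.8% for the cerebellum and 65.2% for the heart. The values for single genes are lung minus the other tissue on the log2 scale. Against the heart all 8 genes differed, with Ece1 at -1.02, Ednrb at -0.99, Gucy1b1 at -0.73, Edn1 at -0.71, Nos2 at -0.64, Gucy1a1 at -0.62, Ednra at -0.57 and Nos3 at -0.36. Against the kidney they were Ednrb at -0.67, Gucy1b1 at -0.35, Edn1 at -0.28, Edn3 at -0.27, Nos3 at -0.27 and Gucy1a1 at -0.24. Against the muscle they were Ednrb at -0.74, Edn1 at -0.44, Gucy1b1 at -0.41 and Gucy1a1 at -0.29. Against the cerebellum they were Ece1 at -0.59, Ednrb at -0.42, Edn3 at -0.41 and Gucy1b1 at -0.33, none of which passed without replicate 1 or without replicate 2. Against the liver they were Ednrb at -0.69 and Gucy1b1 at -0.58. The combinations share the lung libraries. With TPM as deposited 9 of the 24 still differed, and Ednra against the cerebellum, which is not among them, differed at 0.44 with the higher value in the lung.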

How the results depend on the processing

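With TPM as deposited, 2 genes passed in the lung and 0 by 1.5-fold, 0 in the kidney and 1 in muscle, 3 passed 1.5-fold in the heart, and 10 responses differed between lung and another tissue. The lung values turned to 0.10 (Edn1), 0.02 (Edn3), 0.22 (Ednra), 0.13 (Nos3) and 0.07 (Gucy1a1), and the lung minus kidney differences to 0.05 (Edn1), 0.06 (Edn3), 0.10 (Gucy1a1) and 0.05 (Nos3). With a term for the genes detected per library, 4 passed in the lung, 1 each in liver and cerebellum, and 0 in the heart, with 0 by 1.5-fold there, and 6 responses differed. Over all genes, 8103 of 15426 passed in the lung, 3319 of 11334 in the liver, 1498 of 14892 in the cerebellum and 257 of 12779 in the heart. In the heart the number detected did not overlap between treatments. The lung values were then 0.26 (Edn3), 0.78 (Ece1), 0.43 (Ednra), 0.07 (Ednrb), 0.22 (Gucy1a1) and 0.03 (Gucy1b1), and the heart values -0.01 (Ednrb), -0.16 (Nos2), -0.07 (Gucy1a1) and -0.05 (Gucy1b1). Lung minus kidney was 0.53 (Ece1) and 0.05 (Edn3). Lung minus heart was 0.76 (Ece1), 0.42 (Ednra), 0.11 (Ednrb), 0.30 (Gucy1a1), 0.09 (Gucy1b1), 0.14 (Nos2) and 0.23 (Nos3). Lung minus cerebellum was 0.42 (Ece1), 0.15 (Edn3), 0.38 (Ednrb), 0.46 (Gucy1a1) and 0.18 (Gucy1b1). The kidney count was 0 with no filter on low values, with a mean of at least 5 TPM, and with a replicate block by time point, and the muscle count was 0 with a mean of at least 5 TPM, which leaves Edn1 and Edn3 untested. Without the IH cerebellum library of replicate 3 at 1:30, 1 gene passed. The cause of these changes was not tested.

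Leaving out each replicate gave 2 to 8 passing genes for lung (0 to 2 by 1.5-fold), 0 to 1 for liver (0 to 1), kidney, muscle and cerebellum, 6 to 7 for heart (0 to 2), 15 to 27 differing responses and 4 to 11 of the 30 ratios. Ece1 in the lung ranged from -0.82 to 0.08, and its liver minus muscle step from -0.40 to 0.68. The replicate block gave 7 genes in the lung, 8 in the heart, where Nos3 was added, 25 differing responses and 7 ratios, with heart Ednra over Ednrb and liver Edn1 over Ece1 added, and over all liver genes it moved the count passing from 2748 to 3644. Rhythms numbered 8 by the Fisher method, 2 by JTK alone and 4 by the cosine fit alone. Among steps between tissues, scaling over all libraries turned Edn1 cerebellum minus muscle to -0.31 and muscle minus heart to -0.23, Ednra cerebellum minus liver to -0.41, Ednrb muscle minus heart to -0.06 and kidney minus liver to -0.10, Nos1 lung minus heart to -0.12, Nos3 lung minus muscle to -0.80, Gucy1a1 cerebellum minus heart to -0.32 and Gucy1b1 kidney minus liver to -0.03. In IH libraries the turned steps were Edn1 cerebellum minus muscle (-0.25) and muscle minus heart (-0.23), Ece1 liver minus muscle (-0.38), muscle minus heart (-0.23) and kidney minus cerebellum (-0.05), Ednrb muscle minus heart (-0.03), Nos1 kidney minus lung (-0.25) and Gucy1a1 cerebellum minus heart (-0.19). Of the values for single genes and ratios under all alternatives, 1201 kept their direction and side of the threshold, 86 lost it, 37 gained it and 49 that passed in either setting turned.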

Other observations

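After the mean of each tissue and treatment was taken off, the members formed groups that moved together between libraries. Gucy1b1 had r = 0.85 with Gucy1a1, 0.81 with Ednrb and 0.71 with Edn3, and Nos3 had 0.71 with Ednra and 0.60 with Nos2. Edn1 had r of at most 0.44 with any other member. These are correlations over libraries that share composition, and no test was made of them.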
